A study of Mus musculus with 9 samples.

Results

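The 43 genes described here encode non-collagen proteins of the extracellular matrix and the enzymes and chaperones that build or cut it. They were chosen by name, as the rows of the count tables whose gene symbol equals a listed member, and all 43 were found among the 56691 genes of each table. They fall into 19 interstitial matrix genes, 8 genes of the laminin basement membrane and 16 genes for enzymes, their inhibitors and collagen chaperones. The edgeR filter on low counts kept 40 of them, namely 17, 8 and 15 of the classes, among 16903 genes kept in all. The filter removed Fbln5, Fmod and Lox, which were tested only in an alternative without it.

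In an interstitial matrix, fibronectin and collagens form the fibres, fibrillins and elastin form the elastic network, and matricellular proteins such as thrombospondins and tenascins tune how cells hold on to it. A basement membrane is a thin sheet in which laminin trimers are tied to collagen IV by nidogens and perlecan, and it underlies epithelia and surrounds the early epiblast. Lysyl oxidases crosslink collagen and elastin outside the cell, prolyl and lysyl hydroxylases modify collagen inside the endoplasmic reticulum (ER), and metalloproteinases and their TIMP inhibitors control its breakdown. Migrating germ cells move through such matrix, and mesenchymal cells are a known rich source of it.

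The RNA came from BVSC cells, a mouse pluripotent stem cell (PSC) line that carries a Blimp1-mVenus (BV) and a Stella-CFP reporter and was differentiated in embryoid bodies (EBs). Cells with the BV signal (BV+, called PGC-like cells or PGCLCs by the study) and without it (BV−, called somatic cells) were sorted from EBs that carried a p20 vector with Nrf1 cDNA (NRF1 OE) or the empty p20 vector (Ctrl). Every group received doxycycline (DOX) at 1.5 μg/mL from day 2 to day 5, which switches on the vector. There were 2 libraries of BV+ cells with NRF1 OE, 2 of BV+ cells with Ctrl, 3 of BV− cells with NRF1 OE and 2 of BV− cells with Ctrl. The sources used here do not say whether the vector line was 1 clone or a pool.

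Total counts per library lay between 13702162 and 19625460. Below, levels of a gene across libraries are CPM, the counts per 1000000 counts of the TMM-scaled library, and levels between genes are the authors' FPKM, which account for gene length. A gene is called higher or lower where edgeR's quasi-likelihood test, fitted over all 9 libraries, gave a Benjamini-Hochberg adjusted p under 0.05. Replicates differed by more than sampling noise in every group, but not to the same extent. The chi-square statistic per degree of freedom between the libraries of a group was 2.99 in BV+ Ctrl and 6.59 in BV− Ctrl, against 20.2 in BV+ NRF1 OE and 12.3 to 34.7 in BV− NRF1 OE.

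Nrf1, the gene in the vector, was at 95.7 and 99.4 CPM in BV+ cells with NRF1 OE and at 91.1 and 90.4 CPM with Ctrl (log2 fold change 0.10, edgeR adjusted p = 0.489). In BV− cells it was at 119, 122 and 126 CPM with NRF1 OE and at 99.1 and 105 CPM with Ctrl (log2 fold change 0.26, edgeR adjusted p = 0.0718). The NRF1 OE libraries lay above the Ctrl libraries in both populations, but neither difference passed the threshold, and between the populations Nrf1 was lower in BV+ than in BV− cells with NRF1 OE (log2 -0.33, edgeR adjusted p = 0.0431). NRF1 OE is therefore used as the label of a group. Its Nrf1 transcript level does not set it clearly apart.

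The labels of the sorted populations were also checked against their markers. Prdm1, the gene for BLIMP1 that drives the BV reporter, was at 57.5 and 62.8 CPM in BV+ Ctrl cells and at 58.6 and 57.3 CPM in BV− Ctrl cells (log2 fold change 0.054, edgeR adjusted p = 1.00). The summed level of 8 PGC markers was 504 to 512 CPM in BV+ Ctrl and 542 to 548 CPM in BV− Ctrl, and 499 to 541 CPM in BV+ NRF1 OE against 653 to 712 CPM in BV− NRF1 OE. None of the 8 was called higher in BV+ cells by edgeR, and Nanos3, Dppa3 and Tfap2c were called lower in BV+ than in BV− cells with NRF1 OE. The RNA therefore did not show BV+ cells as the population richer in PGC transcripts, and the groups are named by their gate alone. A list of 8 naive pluripotency markers, among them Pou5f1 and Nanog, was high in every group. Its sum was 2286 to 2624 CPM in BV+ NRF1 OE, 2661 to 2799 CPM in BV+ Ctrl, 3050 to 3203 CPM in BV− NRF1 OE and 2912 to 2970 CPM in BV− Ctrl. The part of pluripotent cells in the PGC marker sums was not tested.

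A list of 12 mesenchyme and smooth muscle markers had a higher sum in BV+ than in BV− libraries with the same vector. The list holds the matrix genes Col1a1, Col3a1, Dcn and Lum. Its summed level was 413 to 727 CPM in BV+ NRF1 OE, 128 to 137 CPM in BV+ Ctrl, 94.8 to 139 CPM in BV− NRF1 OE and 58.0 to 71.9 CPM in BV− Ctrl. Acta2 (smooth muscle actin) made up most of the sum, with 506 and 269.8 CPM in BV+ NRF1 OE and 83.2 and 72.9 CPM in BV+ Ctrl, while Lum and Dcn, which mark mature fibroblasts, stayed under 1 CPM in every library. Extraembryonic endoderm markers, from cells that make much basement membrane, summed to 78.9 to 87.1 CPM in BV+ NRF1 OE, 132 to 146 CPM in BV+ Ctrl, 101 to 169 CPM in BV− NRF1 OE and 198 to 279 CPM in BV− Ctrl. In most libraries Cubn made up the largest share of this sum, as in BV− Ctrl with 177 and 113 CPM. In BV+ NRF1 OE Cubn was at 20.4 and 24.8 CPM, below Dab2 at 36.0 and 33.5 CPM. An endothelial and blood list of 8 genes gave sums of 150.4 to 189, 167 to 178, 171 to 189 and 181 to 187 CPM in the same order of groups, most of it Pecam1. A neuroectoderm list of 6 genes summed to 269.8 to 287.7, 226.3 to 235.2, 198.2 to 242.4 and 221.8 to 228.6 CPM in that order. Its gene Nes was at 105.3 and 59.3 CPM in BV+ NRF1 OE and at 4.85 to 27.85 CPM in the other libraries. Otx2 of the same list was lower in both BV+ NRF1 OE libraries than in any other library. In bulk samples such as these, fewer cells of a type and less RNA per cell cannot be told apart, and the part of these markers in the matrix results was not tested.

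**Figure D1:**
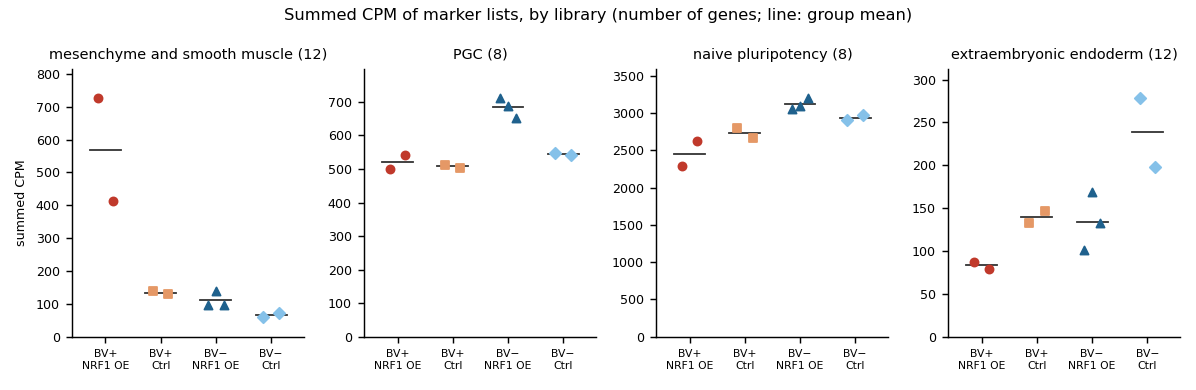
Summed CPM (vertical axes, from 0) of 4 marker lists in each of the 9 libraries, by group, with 1 point per library and a line at the group mean. The mesenchyme list was highest in the 2 BV+ NRF1 OE libraries (413 and 727 CPM), while the PGC list was highest in the 3 BV− NRF1 OE libraries (653 to 712 CPM).

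RefSeq promoters (GRCm38.p6, a build other than the GRCm39 of the counts) were at hand for 27 of the 43 members, as windows of 300 bases around the transcription start. The letters GCNTGCGC, the core of the NRF1 binding sequence, were searched on both strands. They occurred in 2 of the 27 members, Plod1 and P4ha1, or 7.41%, against 11.2% of the 27025 genes with a promoter. TGANTCA, the AP-1 core, was found in 0 of the 27 members and in 8.97% of the genes. Shown are the bases before the start of the 2 members with the NRF1 core, and of Serpinh1 and Bgn, which had among the clearest changes and no match. All run 5′ to 3′ towards the start, capitals mark the NRF1 core, and the loci are chr4:147936777-147937026, minus strand (Plod1), chr10:59323046-59323295, plus strand (P4ha1), chr7:99353240-99353489, minus strand (Serpinh1) and chrX:73483351-73483600, plus strand (Bgn).
Plod1: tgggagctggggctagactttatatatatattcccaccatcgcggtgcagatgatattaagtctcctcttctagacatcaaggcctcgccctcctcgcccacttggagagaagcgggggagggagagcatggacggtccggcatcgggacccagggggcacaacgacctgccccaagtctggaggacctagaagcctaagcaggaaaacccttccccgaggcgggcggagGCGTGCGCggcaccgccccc
P4ha1: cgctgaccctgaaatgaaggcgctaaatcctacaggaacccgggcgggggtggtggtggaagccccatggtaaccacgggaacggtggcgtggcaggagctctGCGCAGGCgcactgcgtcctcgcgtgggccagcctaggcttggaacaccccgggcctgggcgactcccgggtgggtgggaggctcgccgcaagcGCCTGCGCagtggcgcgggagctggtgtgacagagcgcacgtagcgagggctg
Serpinh1: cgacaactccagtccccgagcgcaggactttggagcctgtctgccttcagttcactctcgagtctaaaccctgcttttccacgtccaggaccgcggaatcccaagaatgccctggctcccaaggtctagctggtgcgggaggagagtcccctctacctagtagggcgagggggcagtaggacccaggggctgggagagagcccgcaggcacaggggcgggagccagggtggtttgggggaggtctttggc
Bgn: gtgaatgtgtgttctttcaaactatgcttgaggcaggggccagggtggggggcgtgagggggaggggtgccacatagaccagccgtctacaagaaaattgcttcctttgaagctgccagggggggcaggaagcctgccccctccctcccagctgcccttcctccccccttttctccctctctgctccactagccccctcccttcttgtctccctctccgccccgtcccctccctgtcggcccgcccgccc
The match in Plod1 began at -20 from the start, and those in P4ha1 at -147 and -53. In the comparison that follows Plod1 was called higher in BV+ cells with NRF1 OE and P4ha1 was not, so the core was present in a member that changed and in one that did not pass the test. A match of letters is no evidence of binding, and none of the 4 windows held the AP-1 core.

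Per length, a few members carried most of the matrix RNA. Over all 9 libraries Fn1 (fibronectin) had the highest mean, 123 FPKM, followed by the basement membrane linker Nid2 (nidogen 2, 108 FPKM), the collagen chaperone Serpinh1 (HSP47, 65.3 FPKM), Lamc1 (the laminin γ1 chain, 57.7 FPKM), Hspg2 (perlecan, 41.0 FPKM) and Sparc (osteonectin, 36.6 FPKM). At the other end stood elastin (Eln) at 0.0911 FPKM, Thbs2 at 0.0567 FPKM and Lama4 at 0.226 FPKM. The lysyl oxidase Lox had 7 and 8 raw counts in BV+ NRF1 OE, 5 and 3 in BV+ Ctrl, 0, 0 and 1 in BV− NRF1 OE and 0 and 0 in BV− Ctrl. Fbln5 (fibulin 5) had 1 to 9 raw counts per library and Fmod (fibromodulin) had 0 to 3.

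The summed FPKM of the classes separated the groups unequally. The 19 interstitial genes summed to 300.1 ± 35.5 FPKM in BV+ NRF1 OE (SD, n = 2), 210.2 ± 0.905 in BV+ Ctrl (n = 2), 203 ± 11.7 in BV− NRF1 OE (n = 3) and 181 ± 2.50 in BV− Ctrl (n = 2). The 16 enzymes, inhibitors and chaperones summed to 292 and 203 FPKM in the libraries of BV+ NRF1 OE and to 143 and 140.5 FPKM in BV+ Ctrl, with 106.6 to 141 FPKM in the 5 BV− libraries. The 8 basement membrane genes stayed within 239 to 275 FPKM in all 9 libraries. In all 3 classes both BV+ NRF1 OE libraries lay above every other library, but for the basement membrane the nearest other library was close, at 261 FPKM.

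**Figure D2:**
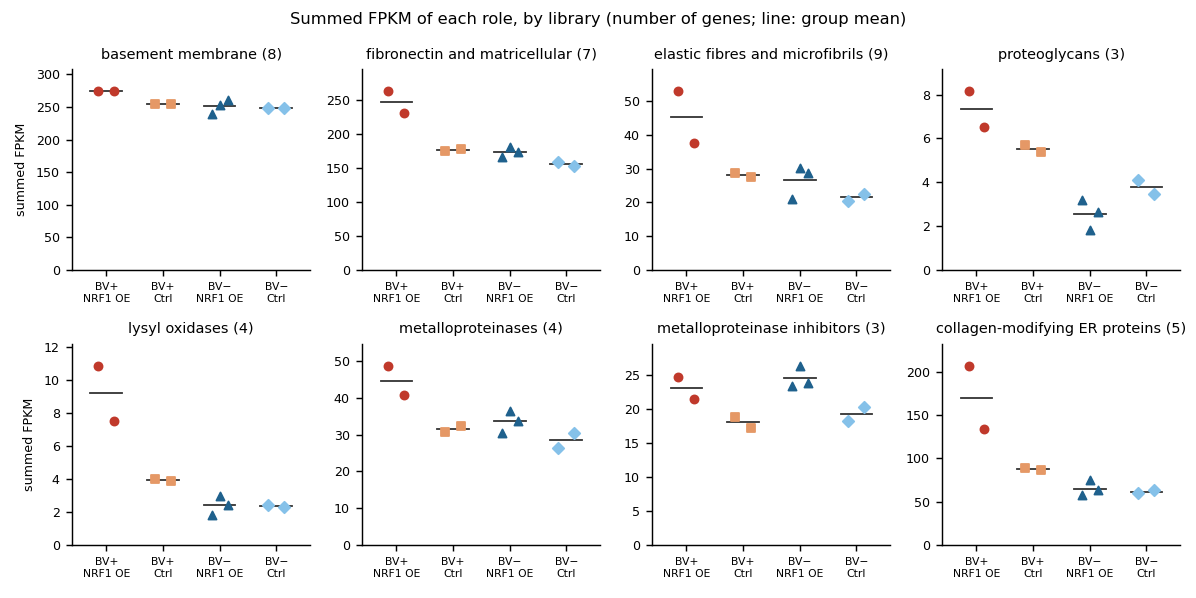
Summed FPKM (vertical axes, from 0) of the members of each role in each library, by group, with 1 point per library and a line at the group mean. The summed lysyl oxidases were at 10.85 and 7.50 FPKM in the BV+ NRF1 OE libraries and at 1.80 to 3.96 FPKM in the other 7, while the basement membrane sum ranged only from 239 to 275 FPKM.

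The first comparison asked which matrix genes changed with NRF1 OE in BV+ cells. Of the 40 members tested, 18 were called higher and 0 lower, while 6.24% of all 16903 genes tested were called higher and 1.78% lower. The rise covered matricellular proteins (Thbs1, Tnc, Sparc), microfibril proteins (Fbn1, Fbn2, Mfap2, Emilin1), biglycan, the lysyl oxidases Loxl1 and Loxl2, Mmp14, Timp2 and the collagen-handling proteins Serpinh1 and Plod1. The major laminin chains, the nidogens, fibronectin and the prolyl hydroxylases were not called. By class, 10 of 17 interstitial genes, 2 of 8 basement membrane genes and 6 of 15 enzymes, inhibitors and chaperones rose, with median log2 fold changes of 0.96, 0.32 and 0.75, beside 0.036 over all genes tested. Adjusted p of the 18 lay between 0.0107 and 0.0468, and at the study's threshold (unadjusted p under 0.05 and an absolute log2 fold change over 0.58) 20 members passed, beside 17.0% of all genes.

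Matricellular proteins showed the largest number of changes. Thbs1 (thrombospondin 1), which binds integrins and activates latent TGFβ, was at 92.5 and 53.9 CPM with NRF1 OE and at 20.2 and 23.4 CPM with Ctrl, a 3.35-fold rise (log2 1.74, standard error 0.302). Sparc, a collagen-binding glycoprotein, was at 308 and 205 CPM against 123 and 121 CPM, a 2.11-fold rise. Tnc (tenascin C), an anti-adhesive protein of migrating cell paths, was at 11.8 and 9.58 CPM against 4.46 and 5.14 CPM, a 2.23-fold rise. Tgfbi, a TGFβ-induced integrin ligand, rose 2.02-fold, from 5.50 and 6.66 to 13.6 and 11.0 CPM. Ccn2 (CTGF), a growth factor-binding matricellular protein, rose only 1.45-fold, from 47.2 and 54.4 to 74.0 and 73.6 CPM. In each of these genes both NRF1 OE libraries lay above both Ctrl libraries. Such separation, here and below, is read from the same libraries as the calls and adds no support to them. Its share over all genes was not counted. Thbs2, the relative of Thbs1, was at 17 and 14 raw counts against 4 and 2, and its log2 fold change of 2.17 did not pass (edgeR adjusted p = 0.0816). Fn1, the most abundant member, was at 1625 and 1601 CPM against 1368 and 1362 CPM, a log2 fold change of 0.24 with an adjusted p of 0.103 in edgeR.

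Among the proteins of elastic fibres, Mfap2 (MAGP1), which binds fibrillin, was at 16.9 and 8.43 CPM with NRF1 OE and at 4.72 and 3.51 CPM with Ctrl, a 3.10-fold rise. Emilin1, which sits between elastin and the microfibril, was at 29.2 and 18.3 CPM against 7.27 and 9.55 CPM, a 2.82-fold rise. Fbn1 and Fbn2, the fibrillins that form the microfibril itself, rose 1.95-fold and 1.82-fold. Fbn1 was at 34.7 and 25.1 CPM against 14.5 and 16.2 CPM, and Fbn2 at 83.9 and 55.1 CPM against 38.7 and 37.8 CPM. Both NRF1 OE libraries lay above both Ctrl libraries in all 4 genes. Elastin, the core of the fibre, was at 1.19 and 0.925 CPM against 0.524 and 0.892 CPM and was not called. The fibulins Fbln1 and Fbln2, which bridge elastic fibres and basement membranes, had log2 fold changes of 0.31 and 0.68 and were not called (edgeR adjusted p = 0.205 and 0.0697). Fbln1, the most abundant of the role, was at 98.2 and 82.0 CPM against 74.5 and 71.0 CPM in BV+ cells and at 69.4, 98.9 and 91.9 CPM against 65.8 and 69.5 CPM in BV− cells. Mfap5 (MAGP2), the partner of Mfap2, was at 2.63 and 2.45 CPM against 2.29 and 2.67 CPM, and its libraries overlapped.

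Bgn (biglycan), a small leucine-rich proteoglycan of collagen fibres, had the lowest adjusted p of all members. Its level was 23.3 and 16.9 CPM with NRF1 OE and 6.88 and 5.09 CPM with Ctrl, a 3.38-fold rise (log2 1.76, standard error 0.232, edgeR adjusted p = 0.0107). Versican (Vcan), the large hyaluronan-binding proteoglycan, was at 63.6 and 53.9 CPM against 64.2 and 63.7 CPM, with both NRF1 OE libraries at or below the Ctrl libraries and a log2 fold change of -0.12 that was not called.

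In the basement membrane fewer members passed the test. Estimates of its backbone genes ranged from below 0 to 0.51. Lamc1 was at 451 and 528 CPM against 487 and 479 CPM (log2 0.02) and Nid2 at 489 and 551 CPM against 562 and 545 CPM (log2 -0.089), with standard errors of 0.133 and 0.0992, and neither was called. Lama5, Lamb1 and Nid1 had log2 fold changes of 0.51, 0.35 and 0.29, with both NRF1 OE libraries above both Ctrl libraries, and were not called either (edgeR adjusted p = 0.0517, 0.0565 and 0.176). Nid2 overlaps Rtraf on the opposite strand, and since the strand setting of the counting is not given in the sources used here, its counts may hold reads of Rtraf. The 2 members called were Hspg2 and Lama4. Hspg2 was at 914 and 677 CPM against 491 and 529 CPM, a 1.56-fold rise. Lama4, the α4 chain of vessel and mesenchymal laminins, was at 6.70 and 5.82 CPM against 2.62 and 3.36 CPM, a 2.08-fold rise at a low level.

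The α chains give each laminin its binding properties, so their shares were compared per length. Lama5, the α5 chain of laminin-511 on which pluripotent cells adhere, held 86.3% ± 0.623 of the summed FPKM of Lama1, Lama4 and Lama5 in BV+ NRF1 OE (SD, n = 2) and 78.5% ± 0.488 in BV+ Ctrl (n = 2). Its share was 79.9% ± 3.34 in BV− NRF1 OE (SD, n = 3) and 73.1% ± 1.30 in BV− Ctrl (SD, n = 2). Lama1, the α1 chain of the early embryo's laminin-111, held 11.6% ± 0.742, 20.2% ± 0.341, 19.7% ± 3.45 and 26.2% ± 1.34 in the same order. The share of Lama1 in both BV+ NRF1 OE libraries (11.1% and 12.1%) was below that of the other 7 libraries (17.1% to 27.2%). The genes themselves were not called in BV+ cells, with log2 fold changes of 0.51 for Lama5 and -0.41 for Lama1 (edgeR adjusted p = 0.0517 and 0.277).

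Of the lysyl oxidases, Loxl1, which crosslinks elastin, was at 17.7 and 12.4 CPM with NRF1 OE and at 5.37 and 4.77 CPM with Ctrl, a 2.97-fold rise. Loxl2, which crosslinks collagen IV, was at 23.1 and 15.6 CPM against 8.39 and 9.28 CPM, a 2.18-fold rise. Loxl3 was at 5.87 and 3.48 CPM against 2.82 and 2.52 CPM and missed the threshold (log2 0.81, edgeR adjusted p = 0.0880). It overlaps Htra2, which had 6124 counts over all libraries against 347 of Loxl3, so the counts of Loxl3 are uncertain where strand was not used.

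Mmp14 (MT1-MMP), a membrane-bound collagenase that activates pro-MMP2, was at 88.5 and 58.4 CPM with NRF1 OE and at 33.6 and 34.1 CPM with Ctrl, a 2.17-fold rise. Timp2, the inhibitor that also takes part in that activation, was at 24.2 and 14.5 CPM against 10.6 and 8.29 CPM, a 2.06-fold rise. Mmp2 itself was at 67.4 and 54.1 CPM against 39.4 and 42.8 CPM, with a log2 fold change of 0.56 that was not called (edgeR adjusted p = 0.0516). Adamts1, Mmp11, Timp1 and Timp3 were not called either, with log2 fold changes of 0.75, 0.16, 0.26 and 0.32. Mmp11 (stromelysin 3) was at 38.2 and 39.3 CPM against 34.0 and 35.5 CPM, and Timp1, the most abundant inhibitor, at 15.1 and 14.3 CPM against 12.7 and 11.9 CPM. Mmp11, Timp1 and Timp3 share their loci with Chchd10, Syn1 and Syn3 on the opposite strand, which makes their counts uncertain.

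Of the 5 collagen-handling proteins of the ER, 2 were called higher. Serpinh1, the chaperone of procollagen, was at 439 and 255 CPM with NRF1 OE and at 143 and 140.0 CPM with Ctrl, a 2.46-fold rise (log2 1.30, standard error 0.238, edgeR adjusted p = 0.0165). Plod1, a lysyl hydroxylase of the collagen helix and the member with an NRF1 core just before its start, was at 82.7 and 59.0 CPM against 43.4 and 39.7 CPM, a 1.71-fold rise. Plod2, which hydroxylates the telopeptides of collagen, was at 33.3 and 35.0 CPM against 44.8 and 43.6 CPM, lower in both NRF1 OE libraries but not called (log2 -0.37, edgeR adjusted p = 0.175). P4ha1 and P4ha2, the prolyl hydroxylase subunits, had log2 fold changes of -0.16 and 0.12 and were not called. P4ha1, with 2 NRF1 cores before its start, was at 40.03 and 48.21 CPM against 50 and 48.83 CPM. Per length, Plod1 held 61.9% ± 6.49 of the summed FPKM of both lysyl hydroxylases in BV+ NRF1 OE and 42.8% ± 1.14 in BV+ Ctrl (SD, n = 2 each). This share was also higher with NRF1 OE in BV− cells, at 51.8% ± 9.66 (SD, n = 3) against 38.9% ± 1.93 with Ctrl (SD, n = 2). Serpinh1 held 81.9% ± 4.99 of the 5 collagen-modifying proteins in BV+ NRF1 OE and 67.1% ± 0.393 in BV+ Ctrl (SD, n = 2 each).

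**Figure D3:**
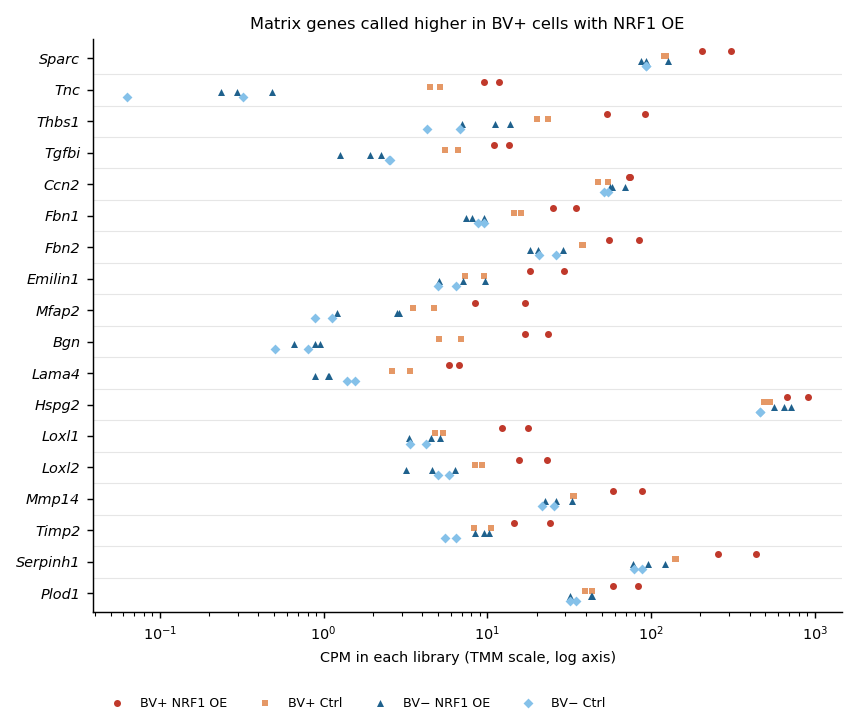
CPM (horizontal log axis) in each of the 9 libraries for the 18 members called higher in BV+ cells with NRF1 OE, with 1 point per library and colour and shape for the group. For every gene both BV+ NRF1 OE points lie to the right of both BV+ Ctrl points, and the distance between the BV+ NRF1 OE points is often wide, as for Serpinh1 (439 and 255 CPM).

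These calls rested on few libraries that differed among themselves. All 18 called members were higher in replicate 1 of BV+ NRF1 OE than in replicate 2, by a median ratio of 1.46 (range 1.00 to 2.00), and the mesenchyme marker sum was 727 CPM in replicate 1 and 413 CPM in replicate 2. Without replicate 1 the median log2 fold change of the 18 was 0.84 in place of 1.10, and each stayed above 0. Without BV+ Ctrl replicate 1 or 2 the median was 1.07 or 1.18. Each of these 3 fits left 1 library in a group, and edgeR then kept no call among the members or among all genes. With all 9 libraries, 25 of the 40 members were at an unadjusted p under 0.05, beside 5487 of all 16903 genes tested. Leaving out BV− Ctrl replicate 1 gave 11 members, beside 425 genes higher and 109 lower of all, and DESeq2 called 21. The counts of the libraries also followed the GC content of transcripts to differing extents, with Spearman's rho over 11335 genes between −0.632 and −0.553 in the Ctrl libraries and between −0.0218 and 0.713 in the NRF1 OE libraries. The median GC content was 52.7% for the members tested and 49.8% for all genes tested. With offsets for GC content and length, 18 members were called, the same genes, but most estimates were smaller. Mfap2 went from log2 1.63 to 1.11, Emilin1 from 1.49 to 1.10, Loxl1 from 1.57 to 1.16, Serpinh1 from 1.30 to 0.93 and Hspg2 from 0.64 to 0.44. Those of Thbs1, Fbn1, Fbn2 and Lama4 were slightly larger.

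The same question was asked in BV− cells. With NRF1 OE, 2 of the 40 members were called higher and 1 lower, beside 10.2% and 6.98% of all genes tested, and all 3 belong to the basement membrane. Hspg2 was at 562, 713 and 646 CPM with NRF1 OE and at 463 and 463 CPM with Ctrl (log2 0.47, edgeR adjusted p = 0.0425). Lama5 was at 185, 243 and 213 CPM against 157 and 161 CPM (log2 0.43, edgeR adjusted p = 0.0490). Nid1 (nidogen 1) was the gene that fell, with 47.0, 39.6 and 52.8 CPM against 65.2 and 59.8 CPM (log2 -0.43, edgeR adjusted p = 0.0455).

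Of the 18 members that rose in BV+ cells, Hspg2 was the one called here. Serpinh1 was at 78.0, 122 and 95.3 CPM with NRF1 OE and at 79.1 and 87.9 CPM with Ctrl in BV− cells, Sparc at 87.0, 128 and 93.3 against 92.9 and 93.6 CPM, and Fbn1 at 7.40, 8.03 and 9.54 against 8.82 and 9.56 CPM. Their log2 fold changes were 0.24, 0.14 and -0.14, the libraries overlapped and none was called. Tgfbi and Lama4 were lower in all 3 NRF1 OE libraries than in both Ctrl libraries, at 1.26, 1.92 and 2.25 against 2.52 and 2.56 CPM and 1.08, 0.884 and 1.07 against 1.39 and 1.55 CPM, and were not called either (log2 -0.49 and -0.53). Thbs1, Mfap2 and Timp2 passed the study's threshold but not the adjusted test, with log2 fold changes of 0.92, 1.17 and 0.65, and 16.0% of all genes passed that threshold. With DESeq2's size factors or library size alone the members called were 1 higher and 2 lower, and with upper-quartile factors 3 and 3. Over all genes the calls were 1672 higher and 1517 lower, 1418 and 1723, and 1814 and 1790 in that order. The 3 calls did not hold with offsets for GC content and length, when edgeR called 0 members, beside 503 genes higher and 327 lower of 16903. DESeq2 called 8 members without offsets, beside 2041 genes higher and 1984 lower. Leaving out BV− NRF1 OE replicate 3 also gave 0, leaving out replicate 2 gave 1 and leaving out replicate 1 gave 10. Over all genes these fits called 27 higher and 8 lower, 1082 and 1378, and 3013 and 2834. No member call was kept without any 1 library of BV+ Ctrl or BV− Ctrl.

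**Figure D4:**
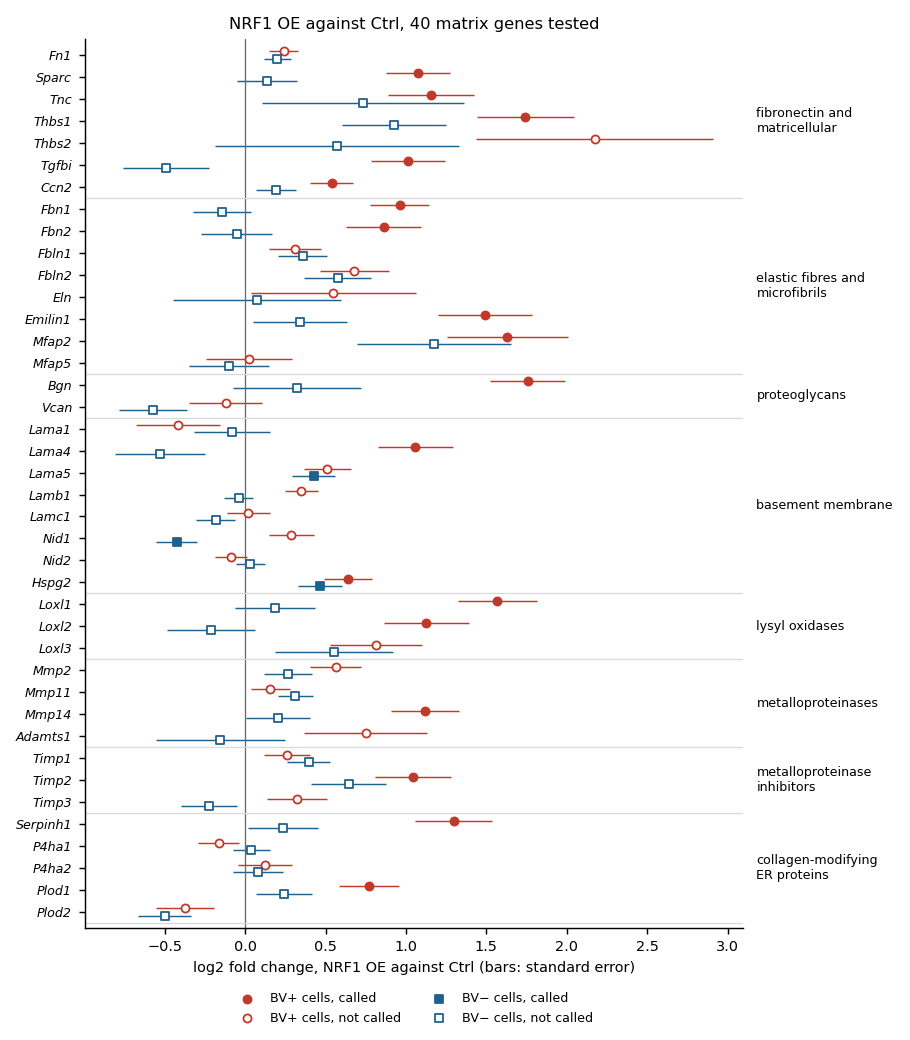
log2 fold change with NRF1 OE against Ctrl (horizontal axis, bars show the standard error) of the 40 members tested, by role, in BV+ cells (red circles) and BV− cells (blue squares), with filled symbols for genes called. In BV+ cells 18 symbols are filled, all to the right of 0, against 3 in BV− cells, which are Lama5, Nid1 and Hspg2.

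Whether the effect of NRF1 OE differed between the populations was tested as an interaction in the same fit. No member was called, and 0% of all genes tested were. An unadjusted p under 0.05 was reached by 13 members in edgeR and 14 in DESeq2, of which DESeq2 called 0 after adjustment, and by 5.51% of all genes in edgeR. The interaction estimate was above 0, that is, more positive in BV+ cells, for 34 of the 40 members, beside 8925 of 16903 genes. Lama4 had an estimate of 1.59 (standard error 0.367), Tgfbi of 1.51 (0.353), Bgn of 1.43 (0.472) and Loxl1 of 1.38 (0.347), all on the log2 scale and with edgeR adjusted p of 0.493 to 0.696. A difference between BV+ and BV− cells in the response to NRF1 OE was therefore not established for any single member. Without BV− NRF1 OE replicate 2 edgeR called 3 members, which were Sparc, Loxl2 and Serpinh1, beside 33 genes higher and 0 lower of 16885.

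The second question was how BV+ and BV− cells differed from each other. With the empty vector, 5 members were called higher in BV+ cells and 0 lower, beside 1.10% and 0.0237% of all genes. Tnc was the clearest, with 4.46 and 5.14 CPM in BV+ Ctrl and 0.0630 and 0.320 CPM in BV− Ctrl. The BV− levels correspond to 1 and 6 raw counts, so the fitted 23.1-fold difference (log2 4.53, edgeR adjusted p = 0.000892) rests on very few reads there, and it lay between log2 3.88 and 6.07 when single libraries were left out. Bgn was at 6.88 and 5.09 against 0.504 and 0.801 CPM, 8.90-fold higher in BV+ cells. Thbs1 was at 20.2 and 23.4 against 4.29 and 6.78 CPM, 3.92-fold higher. Loxl3, with the uncertainty named above, was at 2.82 and 2.52 against 0.756 and 0.748 CPM, 3.52-fold higher. Tgfbi was at 5.50 and 6.66 against 2.52 and 2.56 CPM, 2.40-fold higher. In all 5 genes each BV+ library lay above each BV− library.

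No basement membrane gene was called between BV+ and BV− Ctrl cells. Nid2 was at 562 and 545 CPM in BV+ and 563 and 569 CPM in BV− cells, and Lamc1 at 487 and 479 and 507 and 506 CPM. Lama4 came closest, at 2.62 and 3.36 against 1.39 and 1.55 CPM (log2 1.03, edgeR adjusted p = 0.129). The number of calls was sensitive to which libraries entered. It was 17 when only the 4 Ctrl libraries were fitted, 10 without BV− NRF1 OE replicate 2, and 2 (Tnc and Bgn) without any 1 of the 4 Ctrl libraries. The calls over all genes moved with it, from 186 higher and 4 lower to 717 and 173, to 469 and 15, and to 31 to 73 higher and 0 to 2 lower. At the study's threshold 12 members passed, beside 5.74% of all genes.

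The populations were also compared with NRF1 OE. Here 22 of 40 members were called higher in BV+ than in BV− cells and 0 lower, beside 9.90% and 3.85% of all genes tested. They were 10 of 17 interstitial genes, 3 of 8 basement membrane genes and 9 of 15 enzymes, inhibitors and chaperones, with median log2 fold changes of 1.32, 0.25 and 0.84, beside −0.0049 over all genes. This comparison uses the same BV+ NRF1 OE libraries as the first one and is not independent of it.

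Tnc, at 11.8 and 9.58 CPM in BV+ and 0.482, 0.295 and 0.237 CPM in BV− cells, and Bgn, at 23.3 and 16.9 and 0.662, 0.958 and 0.888 CPM, were again the most different, by 30.9-fold and 24.1-fold. Thbs1 was 6.91-fold higher, with 11.1, 13.8 and 7.05 CPM in BV− cells, Tgfbi was 6.80-fold and Lama4 6.12-fold higher. Of the microfibril genes, Mfap2 was 5.53-fold higher, with 1.20, 2.80 and 2.90 CPM in BV− cells, Fbn1 3.59-fold, Emilin1 3.28-fold, with 5.06, 9.72 and 7.11 CPM, and Fbn2 3.07-fold, with 20.5, 18.1 and 29.1 CPM.

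The genes that crosslink, cut or fold matrix proteins were also apart. Loxl1, Loxl2 and Loxl3 were 3.49-fold, 4.14-fold and 4.21-fold higher in BV+ cells, so that each lysyl oxidase tested was called. In BV− cells Loxl1 was at 3.31, 5.16 and 4.50 CPM, Loxl2 at 3.19, 6.34 and 4.62 CPM and Loxl3 at 1.08, 1.18 and 1.07 CPM. Serpinh1 was 3.53-fold and Sparc 2.50-fold higher in BV+ cells. Mmp14 was 2.70-fold higher, with 22.5, 32.9 and 26.2 CPM in BV− cells, Timp2 2.06-fold, with 9.51, 10.3 and 8.47 CPM, and Plod1 1.79-fold, with 31.79, 43.83 and 43 CPM. Each of the genes called with NRF1 OE had both BV+ libraries above all 3 BV− libraries, which is not independent of the calls on these libraries.

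Some members were called here although they were not called with NRF1 OE in BV+ cells. Nid1 was at 113 and 101 CPM in BV+ and 47.0, 39.6 and 52.8 CPM in BV− cells, a 2.30-fold difference (edgeR adjusted p = 9.21e-05), and Lamb1, the laminin β1 chain, was at 227 and 205 and 166, 164 and 166 CPM, a 1.31-fold difference. Vcan was at 63.6 and 53.9 and 45.5, 23.8 and 36.7 CPM, 1.66-fold higher in BV+ cells. Adamts1, a versican-cleaving protease, and Timp3, its matrix-bound inhibitor, were 2.51-fold and 1.49-fold higher. Adamts1 was at 3.92 and 2.83 CPM in BV+ and 0.963, 2.14 and 1.01 CPM in BV− cells, and Timp3 at 14.6 and 13.5 and 7.34, 9.72 and 11.1 CPM. Timp3 was no longer called with GC and length offsets (edgeR adjusted p = 0.101). Nid2, which shares the linking role of Nid1, was at 489 and 551 CPM in BV+ and 576, 560.0 and 599 CPM in BV− cells, where it was not called (log2 -0.15). Lama1 had the lowest estimate of all members, with 32.6 and 23.7 CPM against 32.6, 64.0 and 41.0 CPM, overlapping libraries and a log2 fold change of -0.70 that was not called (edgeR adjusted p = 0.0799). DESeq2 called it lower, and with GC and length offsets edgeR called Lama1 and P4ha1 lower beside 23 members higher. Over all 16903 genes the offsets gave 1947 higher and 1837 lower, against 1674 and 651 without them.

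**Figure D5:**
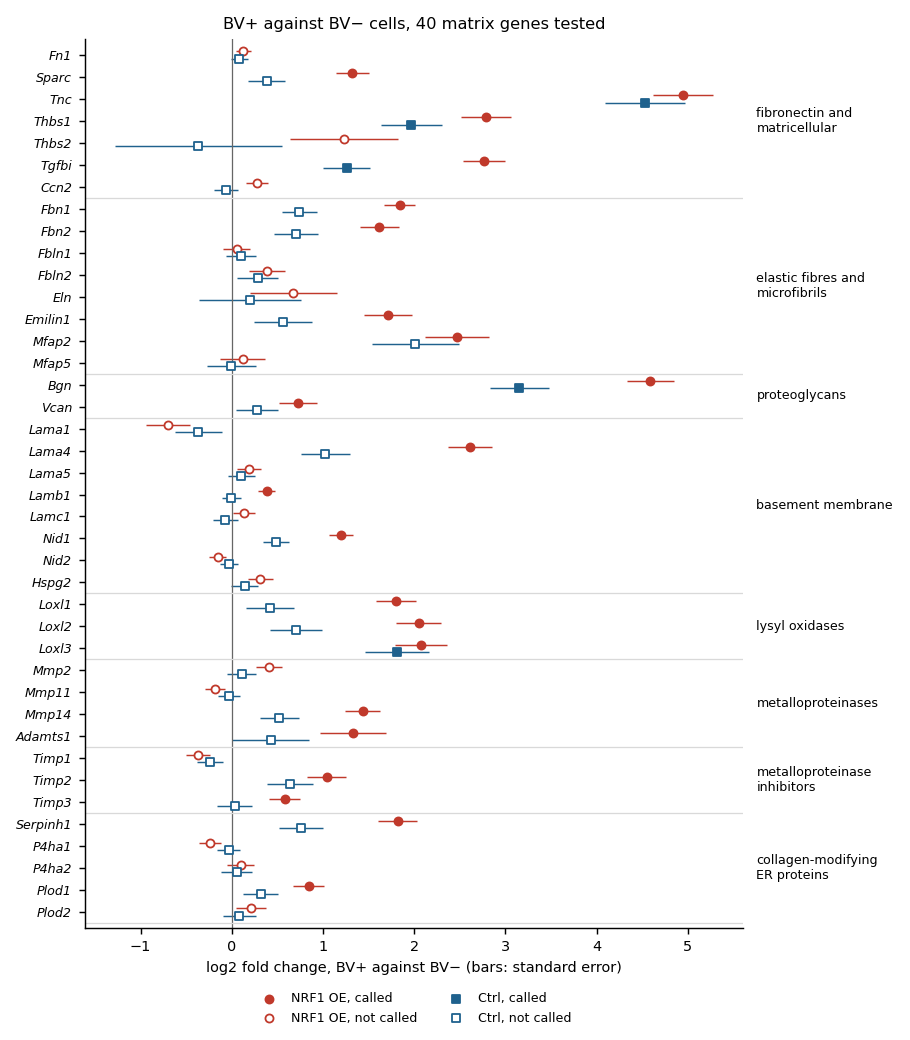
log2 fold change of BV+ against BV− cells (horizontal axis, bars show the standard error) of the 40 members tested, by role, with NRF1 OE (red circles) and with Ctrl (blue squares), with filled symbols for genes called. All filled symbols lie to the right of 0, 22 with NRF1 OE and 5 with Ctrl, and Tnc and Bgn lie furthest out in both.

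The number of members called between the populations with NRF1 OE stayed within 1.5 times of 22 under every alternative run. Leaving out 1 library at a time gave 16 to 25 called members, and the smallest number came without BV+ NRF1 OE replicate 1. Of the mesenchyme and smooth muscle markers tested, 6 of 9 were called higher in BV+ than in BV− cells with NRF1 OE. The median log2 fold change of the 9 was 2.47. With Ctrl 3 were called higher, with a median of 1.14. In the BV+ comparison of NRF1 OE with Ctrl, 6 of 9 were called higher, with a median of 1.93. Col1a1 and Col3a1 in this list are matrix genes themselves, so its likeness to the members is partly that of matrix genes with matrix genes. The libraries of Twist1, Cnn1 and Thy1 overlapped between BV+ and BV− cells with NRF1 OE. Thy1 was at 3.50 and 2.39 CPM against 3.43, 4.42 and 5.09 CPM. The sum of the endothelial and blood list overlapped between BV+ and BV− cells with NRF1 OE. Of its 6 genes tested, Kdr, Cdh5 and Emcn were called higher in BV+ than in BV− cells with NRF1 OE. Pecam1 was at 100.4 and 145 CPM against 163, 155 and 171 CPM. With NRF1 OE against Ctrl in BV+ cells 3 of the 6 were called higher (median log2 0.75). Between BV+ and BV− Ctrl cells 2 were (median log2 1.35). Of 5 neuroectoderm genes tested, 2 were called higher and 1 lower in BV+ than in BV− cells with NRF1 OE (median log2 0.29). In BV+ cells with NRF1 OE against Ctrl 1 of the 5 was called higher (median log2 0.15), as was 1 between the Ctrl populations (median log2 0.35). The part of these markers in the matrix levels was not tested.

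Other genes of the same pathways, none of them members, were read for comparison. In BV+ cells with NRF1 OE, 8 of 31 other interstitial matrix genes tested were called higher, as were 2 of 11 other basement membrane genes, 8 of 35 other matrix enzymes and inhibitors and 9 of 25 matrix receptors, and 0 of any list were lower, beside 6.24% of all genes higher and 1.78% lower. In the order of the lists, the median log2 fold changes were 0.74, 0.40, 0.39 and 0.56. Efemp2 (fibulin 4), which brings lysyl oxidase to elastin, had a log2 fold change of 1.32 (standard error 0.219), Mfge8, an integrin ligand of secreted vesicles, of 0.74 (0.125) and Ecm1 of 1.21 (0.213). Bmp1, the protease that trims procollagen and activates lysyl oxidases, stood at 1.57 (0.262) and Mmp9 at 1.40 (0.242). Of the receptors, Itgb3 (integrin β3) had 1.02 (0.147), Bcam, a receptor of laminin α5, 1.04 (0.210) and the syndecan Sdc3 1.54 (0.311). Pxdn, which crosslinks collagen IV, and the laminin-like Ntn1 were the basement membrane genes called, at 0.97 and 0.92.

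In BV− cells with NRF1 OE, 3 of the 31 other interstitial genes were called higher, 0 of the 11 basement membrane genes changed, 5 of 35 enzymes were higher and 2 lower, and 4 of 25 receptors were higher and 2 lower. Of all genes, 10.2% were higher and 6.98% lower there, so these shares lay near the background. Mfge8 and Efemp2 were called higher there too, at 0.65 and 0.80 on the log2 scale, and so were Bcam (0.66) and Itgb3 (0.47). Between BV+ and BV− cells with NRF1 OE, the called numbers were 12 higher and 2 lower of 31, 4 and 0 of 11, 15 and 0 of 35, and 11 and 1 of 25, in the order of the lists, beside 9.90% and 3.85% of all genes. Has2, which makes hyaluronan, was at 18.9 and 16.1 CPM in BV+ and 1.57, 1.18 and 0.888 CPM in BV− cells, and Cd44, a hyaluronan receptor, at 6.49 and 5.44 and 0.542, 0.810 and 0.829 CPM. With Ctrl the numbers were 4, 0, 3 and 2 higher and 0 lower, beside 1.10% and 0.0237% of all genes. Has2 (7.08 and 9.23 against 2.27 and 1.87 CPM) and Cd44 (2.75 and 2.62 against 0.693 and 1.01 CPM) were among them. No BV− library reached a BV+ library of the same vector in these 2 genes.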

How the data were processed

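RNA-seq libraries of BV+ and BV− cells were read as the authors deposited them, with the raw counts per gene and the FPKM values per gene in each file. According to the methods and processing notes of the study, reads were trimmed with Cutadapt, checked with FastQC, aligned with HISAT2 2.0.1 to GRCm39 and counted per Ensembl gene with HTSeq 0.6.1, whose strand setting is not given in the sources used here. FPKM in the deposited files divide counts by gene length and depth, and they were used only to set levels of genes side by side. Methods call the replicates biological, but the labels do not say that they came from separate cultures, so p-values measure the spread between these libraries.

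Counts of all 9 libraries were fitted together with 4 group terms in edgeR 4.0.16 (R 4.3.3), after its filter on low counts and TMM scaling, and tested by quasi-likelihood with Benjamini-Hochberg adjustment over 16903 genes. The biological coefficient of variation was 0.129. This differs from the threshold of the study, which is given beside the calls. Alternatives were other scalings (DESeq2 size factors, upper quartile, library size alone), no filter or a mean count of at least 10, DESeq2 1.42.0, fits of the groups compared alone, leaving out each library, a replicate block, and offsets for the GC content and length of transcripts, which 98.6% of the genes tested had. Scripts were tested on simulated data. Members and gene lists were chosen with earlier results of these data known. Values per library are given for members called with NRF1 OE in BV+ cells or between BV+ and BV− cells and for the most abundant members of each role, and at most 3 called genes with the lowest adjusted p are named per other list and comparison. One gene that this rule would name is not reported here. Others, such as Cd44, were added after their values were seen. Replicates agreed less well than sampling noise allows in every group, and each was counted as 1 sample. The number of libraries per group limits precision, with totals of 13702162 to 19625460 counts. Overlapping genes were found in a GRCm38 annotation by name, promoters came from RefSeq, and no annotation coordinates other than those of the promoters are given.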

Additional observations from a re-analysis of the deposited data

Results flagged for a closer look

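In 4 members every NRF1 OE library of BV+ cells lay on one side of its Ctrl libraries and every NRF1 OE library of BV− cells lay on the other. They are Tgfbi, Lama4, Lamb1 and Nid1, all higher in BV+ and lower in BV− cells. The difference of the log2 effects, BV+ minus BV−, was 1.51 for Tgfbi and 1.59 for Lama4, the largest of these, and edgeR's interaction test gave an adjusted p of 0.493 for each. For Nid1 it was 0.71 (edgeR adjusted p = 0.571) and for Lamb1 0.39 (edgeR adjusted p = 0.734). None of the 4 differences passed the threshold. The share of all genes with such opposite sides was not counted, so the number of members that have them cannot be set against a background.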

How the results depend on the processing

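Of 912 values of called members under the alternatives, 730 kept their direction and their side of the threshold, 182 kept the direction but lost the call, and none turned. With NRF1 OE in BV+ cells 18 of 40 members were called, against 14 to 26 when 1 BV− NRF1 OE library was left out. The count was 0 with the replicate block and 13 with the block and GC and length offsets. No member call was kept without BV+ NRF1 OE replicate 1 or without a BV+ Ctrl library. Over all genes the split there was 1054 higher and 301 lower, against 775 and 513 with upper-quartile factors, 1069 and 922 with GC and length offsets, 1752 and 1688 without the filter, 2096 and 2275 with only the groups compared, 2 and 1 with the block, and 2582 and 2375 without BV− NRF1 OE replicate 2. In BV− cells, where 3 members were called with NRF1 OE, the count was 6 with upper-quartile factors, 8 without the filter, 8 in DESeq2 and 0 to 10 when 1 BV− NRF1 OE library was left out. It was 0 with only the groups compared, with the replicate block, and with GC and length offsets with or without the block. No member call was kept without a Ctrl library. Over all genes the calls were 1731 higher and 1179 lower, against 1814 and 1790 with upper-quartile factors, 1960 and 2432 without the filter, and 2041 and 1984 in DESeq2. Between BV+ and BV− Ctrl cells the 5 members became 9 without the filter, 17 with only the groups compared and 3 with the replicate block. They became 12 at the study's threshold and 10 without BV− NRF1 OE replicate 2. Over all genes, 186 higher and 4 lower became 493 and 36, 717 and 173, 121 and 0, 820 and 151, and 469 and 15 in that order. The interaction, with 0 members, gave 9 without the filter, 12 at the study's threshold and 3 without BV− NRF1 OE replicate 2. Over all genes these settings gave 99 higher and 9 lower of 33142, 602 and 155 of 16903, and 33 and 0 of 16885. Elsewhere the replicate block changed no count by over 1.5 times. The cause was not tested in any case.

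Replicate numbers did not pair the libraries consistently. The log2 difference of replicate 1 minus replicate 2 was correlated between groups over 11335 genes. These correlations ranged from −0.519 to 0.529, and between the Ctrl groups the correlation was −0.245. A block on the 4 Ctrl libraries alone, chosen after seeing the data, gave 16 members with their own numbers and 20 with crossed numbers (823 and 2079 of all genes). Depth limited Fbln5, Fmod and Lox, tested only without the filter, and Tnc in BV− Ctrl cells. With 2 libraries in 3 of the 4 groups, the spread is taken largely from the other groups.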
